A study of Mus musculus with 4 samples.

Results

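The fibrous sheath genes described here are Akap3, Akap4, Fsip2, Ropn1, Ropn1l, Spa17, Cabyr and Fscb, which the count tables list in capitals. They were chosen by name, and all 8 were found among the 25824 gene symbols and in each of the 4 tables. Single cell RNA-seq was performed on cells from dissociated testes of 4 mice, of which 2 were WT (Ctcf wt/wt) and 2 were Ctcf-cKO (Stra8-iCre-Ctcf f/Δ). In Ctcf-cKO mice iCre is driven by the promoter of Stra8, a gene of premeiotic male germ cells, and the pairing of a floxed with a deleted Ctcf allele leaves somatic cells with the floxed copy. All mice were 15 weeks old, on the background the labels write as C56BL/6J. Each mouse gave a single library, and the replicates of every comparison were mice, numbered 1 and 2 for WT and 1 and 3 for Ctcf-cKO.

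The fibrous sheath is a cytoskeletal layer of the sperm tail that surrounds the outer dense fibres and the axoneme along the principal piece. It is built of longitudinal columns joined by ribs, and it anchors protein kinase A and enzymes of glycolysis, which serve motility and capacitation. AKAP4 and AKAP3 are its main structural scaffolds, FSIP2 is a very large sheath protein that binds AKAP4, ROPN1, ROPN1L, SPA17 and CABYR carry a domain like that of the regulatory subunit of protein kinase A and dock onto the scaffolds, and FSCB binds CABYR. Most of these genes are transcribed in spermatids, while the sheath itself is assembled later, as the spermatid elongates.

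On GRCm38, Akap3 lies on chromosome 6 from 126853098 to 126874308, Akap4 on chromosome X from 7067519 to 7078609 and Fsip2 on chromosome 2 from 82943634 to 83008937, all on the forward strand. Ropn1 lies on chromosome 16 from 34649921 to 34678618 on the forward strand, and its paralogue Ropn1l on chromosome 15 from 31441211 to 31453737 on the reverse strand. Spa17 lies on chromosome 9 from 37603290 to 37613722 and Fscb on chromosome 12 from 64471330 to 64474690, both on the reverse strand. The 8 genes are protein coding, and none shared a run of 50 bases with a transcript of another gene in the GENCODE M21 annotation, so that at this length reads of the paralogues could be told apart. Spa17 and Cabyr overlap a gene on the opposite strand (Siae and Gm7599), and Ropn1l overlaps Gm6361 on its own strand. Whether counting used the strand is not given in the sources used here, so reads of Siae and Gm7599 could be counted for Spa17 and Cabyr. For Ropn1l the strand has no bearing on the overlap with Gm6361, with which it shared no run of 50 bases.

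RefSeq promoter sequences of GRCm38.p6 matched 7 of the 8 genes, with 9 start sites. Within the 250 bases before the start sites, 34 pairs of sites of different members were compared, and the longest run shared by any pair was 20 bases, between Akap3 and Akap4. These letters were held by 2 of 32851 promoters of the mouse genome, those of Akap3 and Akap4. The run begins at position -34 relative to the start site of Akap3 and at position -47 of Akap4, and ends in TGATGTCA, which differs by 1 base from the cAMP response element TGACGTCA. The next longest shared runs were of 10 bases. TGATGTCA was also present at position -51 of Fscb, and on either strand it was held by 3 of the 9 member sites and by 2.93% of all promoters of this length. It was searched for after the sequences had been read. The 3 promoters that hold it are shown because they share these letters, from chr6:126852848-126853097 on the forward strand, chrX:7067265-7067514 on the forward strand and chr12:64474899-64475148 on the reverse strand, with the shared letters in capitals.
Akap3: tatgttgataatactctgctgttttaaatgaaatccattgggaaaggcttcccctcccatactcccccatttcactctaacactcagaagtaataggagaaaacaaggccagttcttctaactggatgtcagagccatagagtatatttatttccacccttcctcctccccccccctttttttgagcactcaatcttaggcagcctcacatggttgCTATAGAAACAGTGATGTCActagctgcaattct
Akap4: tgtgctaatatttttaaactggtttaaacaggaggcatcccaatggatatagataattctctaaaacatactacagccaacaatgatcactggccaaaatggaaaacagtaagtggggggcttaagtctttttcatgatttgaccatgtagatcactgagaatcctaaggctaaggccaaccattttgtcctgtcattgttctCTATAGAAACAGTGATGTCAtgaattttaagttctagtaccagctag
Fscb: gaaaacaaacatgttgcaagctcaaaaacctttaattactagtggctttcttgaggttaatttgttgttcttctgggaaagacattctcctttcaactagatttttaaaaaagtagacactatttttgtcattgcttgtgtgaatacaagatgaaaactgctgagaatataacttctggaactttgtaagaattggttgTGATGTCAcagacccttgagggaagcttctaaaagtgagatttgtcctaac
The full element TGACGTCA was in none of the 9 sites and in 1.79% of all promoters (300 bases, both strands). CCAAT was in 4 of the 9 and in 37.4% of all, the X-box core GTTGCC in 1 (Ropn1l) and in 12.5%, and TATAAA in none and in 13.6%. These matches describe letters and say nothing of binding.

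Depth was 6701235 and 4859455 counts for WT and 2652665 and 1593546 for Ctcf-cKO, so both Ctcf-cKO libraries were shallower than both WT libraries. Ctcf, counted over all barcodes, was at 16.4 and 10.1 CPM (counts scaled to a total of 1000000) in WT mice and at 1.51 and 4.39 CPM in Ctcf-cKO mice, which rest on 110, 49, 4 and 7 counts. In early spermatid-like cells it had 6 and 6 counts in WT mice and 0 and 4 in Ctcf-cKO mice (10.1, 3.65, 0 and 33.7 CPM). The library labelled Ctcf-cKO replicate 3 thus had the highest CPM there, but counts this few show neither the loss nor its absence in these cells. In mid and late cells the gene had 6 and 7 counts in WT replicate 1 and none in the other 3 mice. After the limits on depth, 811 cells remained, with a median of 15357 and 8251 counts per cell in WT mice and 4668 and 2338 in Ctcf-cKO mice. No barcode was shared between kept cells of different libraries except 1, held by WT replicate 2 and Ctcf-cKO replicate 1. Cells were clustered without the 8 genes and named by markers as spermatocyte-like, early (round), mid and late (elongating) spermatid-like, and somatic-like. The mid and late clusters bore the same marker name. The one with the higher median pseudotime, 0.895 against 0.877, was taken as late, and its cells were shallower (median of 2027 against 8110 counts). Early spermatid-like cells numbered 15 and 141 in WT mice and 39 and 12 in Ctcf-cKO mice. Values of the 4 mice are given in this order below, WT before Ctcf-cKO and by replicate number. The early class joins 3 clusters, of which the one that is second in pseudotime held 0, 65, 24 and 8 of these cells, so that early values of WT replicate 1 rest on another mix of clusters than those of the other mice. Mid cells numbered 34, 14, 31 and 27, late cells 27, 11, 37 and 60, spermatocyte-like cells 5, 33, 15 and 10, and somatic-like cells 11, 7, 83 and 119. Transition protein genes led the mid cluster. The 22 markers of elongating spermatids summed to 272180, 261390, 215620 and 227890 CPM in mid cells. In late cells they summed to 240550, 307480, 207250 and 204430 CPM, lower than in mid cells in every mouse but WT replicate 2. In the late cluster Prm2 and Spem1 were among the leading genes beside Hbb-bs, a globin gene of red blood cells, and Car2. A further cluster of 80 cells met no marker list and stayed unnamed.

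The 8 genes were detected in the spermatid classes at very unequal levels, and single genes ranged from 0 CPM (FSIP2 in late cells) to 3816 CPM (ROPN1L in early cells). Their summed level was between 8573 and 10154 CPM in early cells, between 7957 and 8809 in mid cells and between 7991 and 8738 in late cells. In spermatocyte-like cells it was 3753, 6552, 5029 and 5751 CPM, lower than in the early cells of the same mouse in 4 of 4 mice. The background was large. Somatic-like cells, which should lack the sheath, held 4251 to 5611 CPM, and barcodes with under 200 genes held 7296 to 9395 CPM. What share of the latter is free RNA, shallow cells or fragments was not tested. The late cells held 0.918 to 1.13 times the summed level of these barcodes. The 2 backgrounds are given with each gene below, and the somatic-like values of WT mice rest on 11 and 7 cells.

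**Figure D1:**
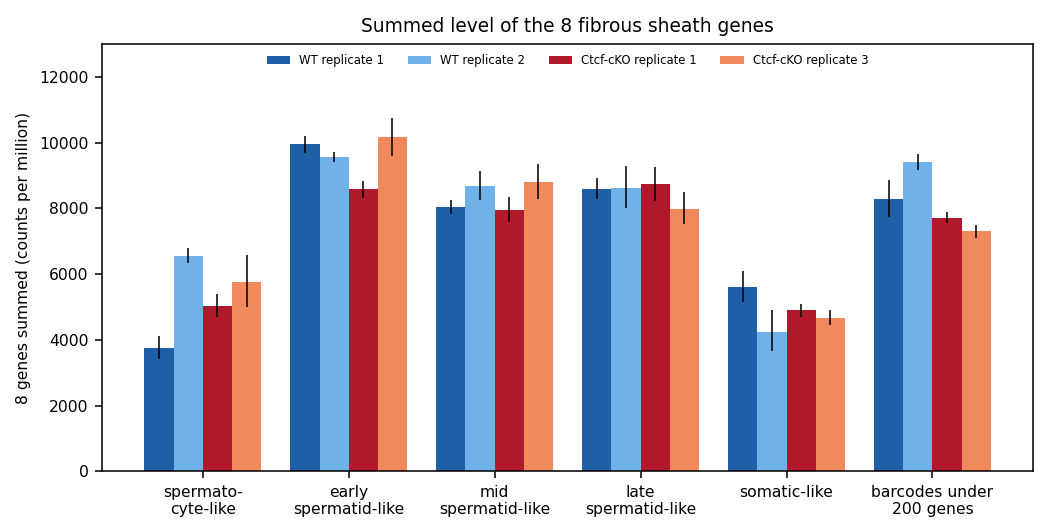
Summed level of the 8 fibrous sheath genes, in CPM on the y axis, in each class and in barcodes under 200 genes. Each mouse has a bar, with exact 95% Poisson intervals that take each count as independent and so may be too narrow. Spermatid-like cells of all 4 mice lay above the somatic-like cells, and the barcodes under 200 genes reached 7296 to 9395.

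The levels by stage are given as a description, since clusters were made from the same cells. The step from mid to late cells rests on the order in pseudotime alone, as both clusters bore the same marker name. AKAP4, the major scaffold, was at 54.4, 952, 756 and 861 CPM in spermatocyte-like cells and at 767, 1652, 1495 and 1380 in early cells. In mid cells it was at 1671, 2024, 2821 and 2690 CPM and in late cells at 3017, 3012, 3442 and 3292. It was higher at each step in 4 of 4 mice, and the late level was 1.82 to 3.93 times the early level of the same mouse. In early cells AKAP4 was 0.709 to 1.31 times its somatic-like level, so at that stage it could not be told from background, whereas in late cells it was 2.16 to 2.79 times the somatic-like level and 1.66 to 4.22 times the level in barcodes under 200 genes.

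AKAP3, the scaffold of the ribs and columns that partners AKAP4, had the opposite order. It was at 101, 178, 345 and 167 CPM in spermatocyte-like cells and was highest in early cells, at 436, 486, 596 and 1010 CPM. Barcodes under 200 genes held 429, 427, 478 and 572 CPM, so that the early level of WT mice was close to theirs, and the early level was 0.83 times the somatic-like level in WT replicate 1 and 1.9 to 3.04 times it in the other 3 mice. In mid cells it was at 363, 355, 427 and 599 CPM and in late cells at 67.6, 108, 257 and 456, lower at each step in 4 of 4 mice. Late cells held 0.155 and 0.222 of the early level in WT mice and 0.431 and 0.452 in Ctcf-cKO mice, and in all 4 mice the late level was under that of barcodes under 200 genes (0.158 to 0.798 of it). The pair of genes with the shared promoter run was thus highest in different classes, AKAP3 in early and AKAP4 in late cells.

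FSIP2, which has 23 exons and binds AKAP4, was a gene of low level that was highest in early cells. In spermatocyte-like cells it was at 218, 114, 39.1 and 0 CPM, in WT replicate 2 close to the early level. It was at 537, 125, 267 and 67.3 CPM in early cells, on 318, 206, 123 and 8 counts, and at 7.88, 29.6, 96.8 and 49.2 in mid cells. The early level was 4.82 to 10.2 times the somatic-like level, which was 52.5, 23.4, 29.8 and 14.0 CPM and rests on few counts. Barcodes under 200 genes held 162, 134, 117 and 65.5 CPM, above the early level of WT replicate 2 and close to that of Ctcf-cKO replicate 3. In late cells FSIP2 had 12, 0, 3 and 0 counts. WT replicate 2 and Ctcf-cKO replicate 3 had no count. With 3 counts per library as the floor, the floor lay 3.48-fold and 3.0-fold below their early levels. It takes each count as independent, whereas a molecule may have been counted more than once. These folds are therefore no firm lower bounds, and the early level of Ctcf-cKO replicate 3 rests on 8 counts. At equal depth no late cell of any mouse held a count.

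ROPN1L, a docking protein of the scaffolds, was already high before the spermatid classes. It was at 2541, 2659, 1831 and 2389 CPM in spermatocyte-like cells and at 3816, 2865, 2544 and 3390 in early cells, 3.23 to 3.71 times the somatic-like level. It was at 684, 1497, 607 and 1197 CPM in mid cells and at 415, 504, 319 and 718 in late cells, lower at each step in 4 of 4 mice. The late level was 0.109 to 0.212 of the early level and lay under the somatic-like level in 4 of 4 mice. Barcodes under 200 genes held 3210, 2587, 1550 and 1692 CPM, less than the early cells of the same mouse in 4 of 4 and more than the late cells in 4 of 4. At equal depth (each cell thinned to 900 counts) 82.1 to 100% of early cells and 18.2 to 35% of late cells held a count.

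Its paralogue ROPN1 had another course. ROPN1 was at 38.9, 484, 410 and 889 CPM in spermatocyte-like cells, 1231, 994, 815 and 1279 in early cells, 2148, 1675, 986 and 1189 in mid cells and 363, 1200, 654 and 853 in late cells. The mid level was higher than the early level in 3 of 4 mice, the exception being Ctcf-cKO replicate 3, and the late level was lower than the mid level in 4 of 4. WT replicate 1 had the largest step between mid and late cells, to 0.169 of the mid level, against 0.664 to 0.717 in the other 3 mice. Early cells were at 1.61 to 4.73 times and mid cells at 1.95 to 7.97 times the somatic-like level. Late cells were at 0.627 of it in WT replicate 1 and at 1.29 to 5.71 times it in the other mice. They were at 0.349 to 1.14 times the level of barcodes under 200 genes, which was 1038, 1052, 1090 and 842 CPM. That level was above the early level of WT replicate 2 and Ctcf-cKO replicate 1, and above the mid level of Ctcf-cKO replicate 1.

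SPA17 and CABYR, both docking proteins, also differed. SPA17 was at 1576, 2293, 1766 and 1750 CPM in early cells, 2381, 2557, 2350 and 2420 in mid cells and 3380, 3036, 2936 and 1983 in late cells. The late level was 1.13 to 2.14 times the early level, higher in 4 of 4 mice, although Ctcf-cKO replicate 3 had its highest value in mid cells. Early cells were at 1.23 to 1.78 times and late cells at 2.02 to 3.12 times the somatic-like level. Late cells were at 1.24 to 1.82 times the level of barcodes under 200 genes. Those barcodes held 1857, 2383, 1870 and 1600 CPM of SPA17, above the early level in every mouse but Ctcf-cKO replicate 3. CABYR, a calcium-binding protein phosphorylated during capacitation, was at 31.1, 259, 111 and 83.3 CPM in spermatocyte-like cells and at 1198, 790, 811 and 816 in early cells, 3.0 to 4.16 times its somatic-like level. It was at 416, 367, 317 and 361 CPM in mid cells and at 492, 420, 273 and 382 in late cells, so that late cells held 0.336 to 0.532 of the early level. Barcodes under 200 genes held 648, 647, 424 and 393 CPM, below the early and above the late level of the same mouse in 4 of 4 mice.

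FSCB, a CABYR-binding protein encoded by a gene of 1 exon, was at 387, 349, 280 and 463 CPM in early cells and at 369, 183, 352 and 303 in mid cells. In late cells it was at 817, 348, 833 and 307 CPM. Late cells were above early cells in WT replicate 1 and Ctcf-cKO replicate 1 and at or below them in the other 2 mice, so no common direction was seen. The somatic-like level was 757, 70.1, 183 and 165 CPM, above the early and mid levels in WT replicate 1 and below them in the other mice. Late cells were at 0.993 to 3.73 times the level of barcodes under 200 genes. Those barcodes held 219, 351, 289 and 306 CPM of FSCB, slightly above the early level of WT replicate 2 and Ctcf-cKO replicate 1. Averaged over the 4 mice, the log2 ratio of late to early cells was 1.33 ± 0.47 for AKAP4, 0.60 ± 0.40 for SPA17, 0.51 ± 0.99 for FSCB, -0.60 ± 0.86 for ROPN1, -1.22 ± 0.28 for CABYR, -1.80 ± 0.75 for AKAP3 and -2.74 ± 0.44 for ROPN1L (SD, n = 4 mice). The values of the 4 mice overlapped between every pair of neighbours in that order, whereas all values of AKAP4 and SPA17 were above 0 and all values of CABYR, AKAP3 and ROPN1L below 0.

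**Figure D2:**
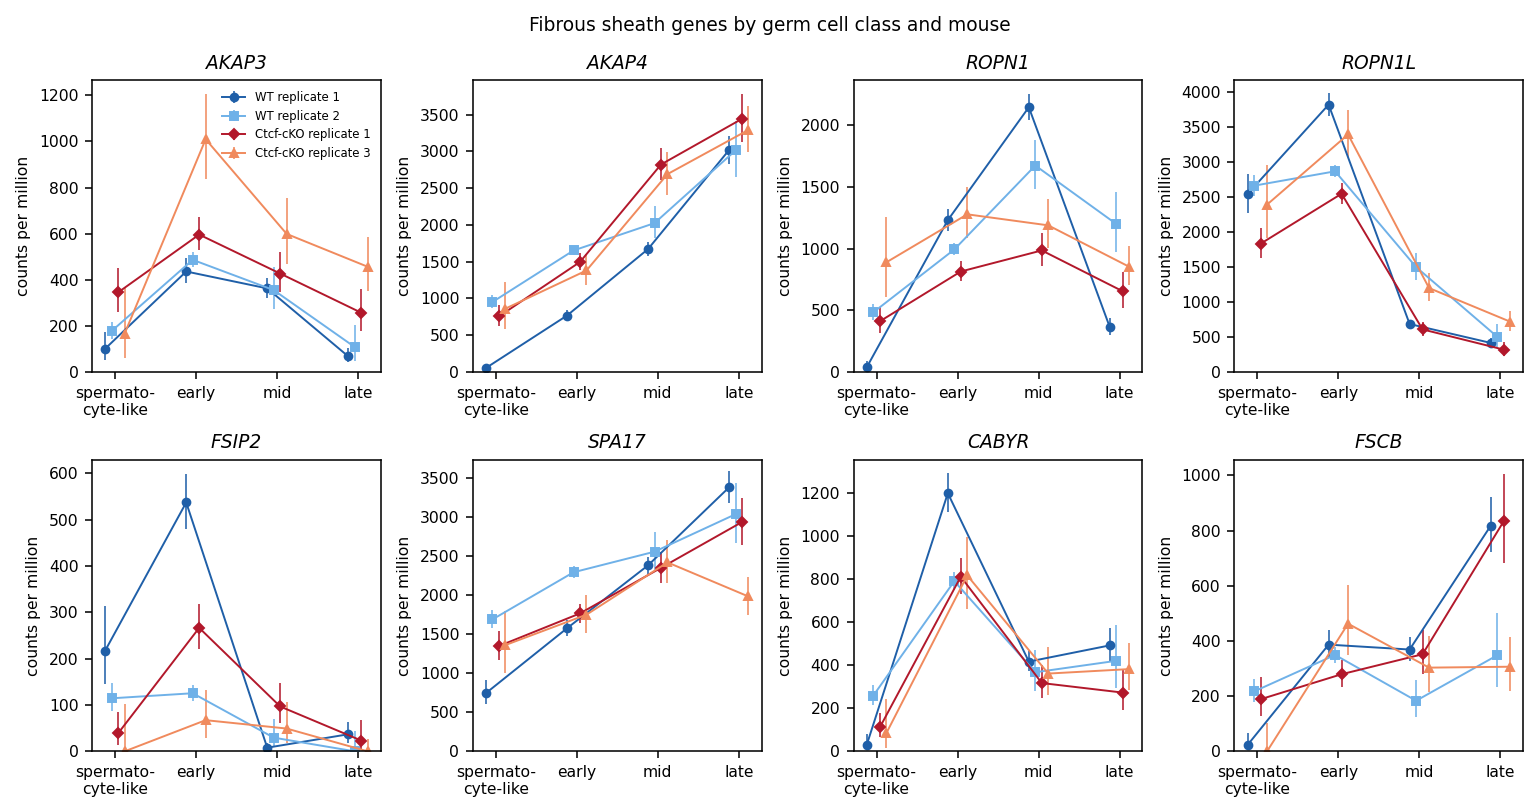
Level of each gene in CPM (y axis, from 0) in spermatocyte-like and early, mid and late spermatid-like cells (x axis), with a line per mouse. The exact 95% Poisson intervals take each count as independent and so may be too narrow. AKAP4 climbs from left to right in all 4 mice and SPA17 from early to late cells, with Ctcf-cKO replicate 3 highest in mid cells, while ROPN1L, CABYR, AKAP3 and FSIP2 peak in early cells.

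**Figure D3:**
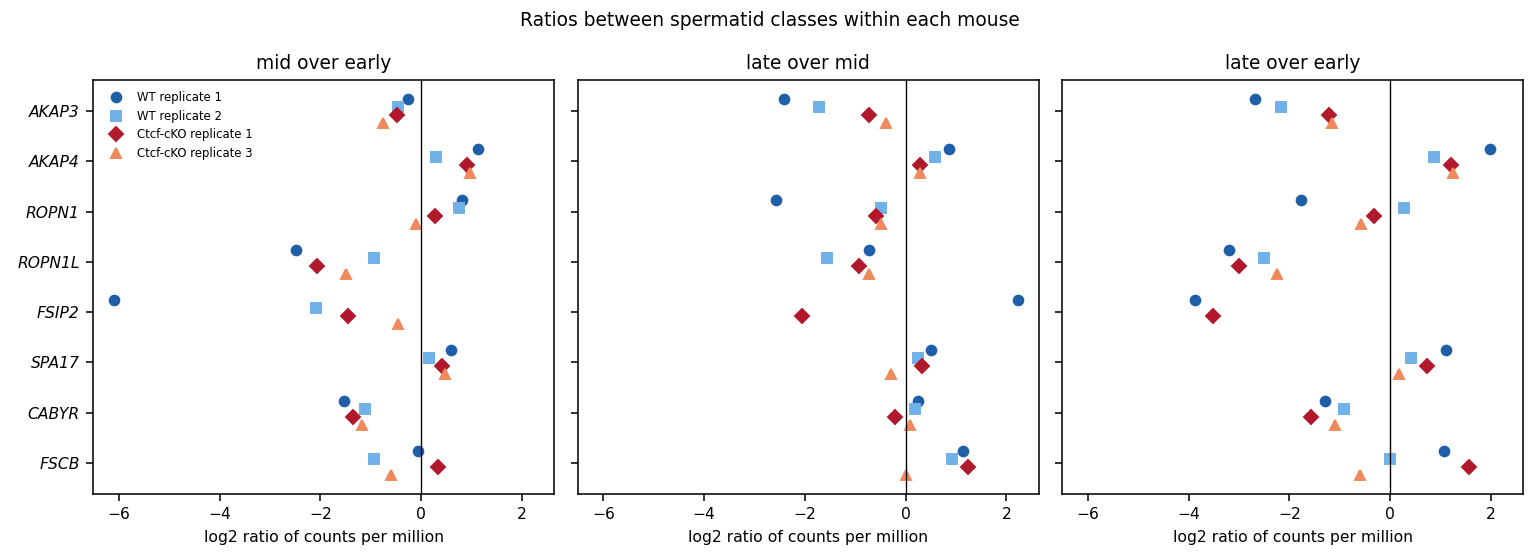
Log2 ratio of CPM between spermatid-like classes (x axis) for each gene (y axis), with a point per mouse and none where a class had no count. In the late over early panel all 4 mice lie right of 0 for AKAP4 and SPA17 and left of 0 for AKAP3, ROPN1L and CABYR.

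Levels were also compared between the clusters within the early class. Of the 3 round spermatid clusters, the earliest by pseudotime held 51 cells, the next 97 and the last 59. Each had at least 5 cells in 3 mice, and both WT mice and Ctcf-cKO replicate 1 had them in both the earliest and the last. CABYR was at 938, 674 and 599 CPM in the earliest cluster of these mice and at 1369, 991 and 1202 in the last, higher in 3 of 3. AKAP4 was at 399, 1592 and 539 CPM in the earliest and at 1010, 1324 and 1715 in the last, higher in 2 of the 3. ROPN1L was at 3490, 2663 and 3126 CPM in the earliest and at 4032, 3467 and 2774 in the last, higher in 2 of the 3. Like CABYR, the next 3 genes were higher in the last cluster in 3 of 3. AKAP3 went from 233, 376 and 499 to 570, 603 and 533 CPM. ROPN1 went from 832, 899 and 379 to 1496, 1098 and 877, and FSCB from 327, 338 and 120 to 426, 385 and 370. SPA17 (1520, 2220 and 1388 to 1613, 2132 and 1780) and FSIP2 (522, 153 and 409 to 547, 138 and 286) had no common direction. The middle cluster, which lacked WT replicate 1, often lay outside both. In WT replicate 2 and Ctcf-cKO replicate 1 it held AKAP4 at 2129 and 1794 CPM, above both, and ROPN1L at 2201 and 2093, below both. SPA17 and FSIP2 lay outside in both mice as well, and each other gene in a single mouse. No steady course along pseudotime is thus shown within the early class.

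Ctcf-cKO cells were compared with WT cells in each spermatid class by edgeR's quasi-likelihood F test on counts summed per mouse, with Benjamini-Hochberg adjustment over all genes tested and a threshold of 0.05. Early cells gave no call among 6393 genes (0%), with 199 genes (3.11%) at an unadjusted p under 0.05 and 5 calls by DESeq2. All 8 fibrous sheath genes were tested, and none was called by edgeR or DESeq2 or had an unadjusted p under 0.05. AKAP3 had a log2 fold change of 0.66 ± 0.35 (SE, adjusted p = 0.999), with both Ctcf-cKO mice above both WT mice, as were 17.6% of all genes tested. The other 7 genes overlapped between genotypes, with log2 fold changes from -0.84 (FSIP2) to 0.12 (AKAP4). The median over the 8 was -0.22, and over all genes tested -0.05. In simulated counts with these depths, 20.5% of genes changed by 2 on the log2 scale were called and none of those changed by 1, so changes of that size were not detectable in early cells.

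In mid spermatid-like cells 160 of 2457 genes were called (6.51%), 132 of them higher (5.37%) and 28 lower (1.14%) in Ctcf-cKO mice. Of the 8 genes 7 passed the filter on low counts, and 1 of the 7 was called. An unadjusted p under 0.05 was found for 2 of the 7, ROPN1 and AKAP4, and for 19.5% of all genes tested. ROPN1, at 2148 and 1675 CPM in WT mice and 986 and 1189 in Ctcf-cKO mice, was lower in Ctcf-cKO mice without overlap, as were 22% of all genes tested. Its log2 fold change was -0.87 ± 0.22 (SE, adjusted p = 0.032), a level 0.547 of that in WT cells. At equal depth 85.3% and 78.6% of mid cells of WT mice held a ROPN1 count, against 41.9% and 44.4% in Ctcf-cKO mice, while somatic-like cells held 36.4% and 14.3% in WT mice and 24.1% and 28.6% in Ctcf-cKO mice. In barcodes under 200 genes ROPN1 was at 1038, 1052, 1090 and 842 CPM.

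The ROPN1 call depended on the library and on the cells taken as mid. Without WT replicate 1 the log2 fold change was -0.67 (adjusted p = 0.232) and without Ctcf-cKO replicate 1 it was -0.78 (adjusted p = 0.129), so that the call was lost, whereas it held without either of the other mice. It was also lost with the 8 genes kept in the clustering (-0.75), with free RNA subtracted (-0.89, adjusted p = 0.058) and with as many barcodes as the study counts (-0.50), where ROPN1 was instead called in late cells (-1.29, adjusted p = 0.0014). The direction was the same in mid cells under all 15 alternatives, and 10 of them called it. In the other classes ROPN1 overlapped between genotypes, with log2 fold changes of -0.20 ± 0.30 (SE) in early and -0.06 ± 0.60 in late cells.

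Markers of somatic cells moved with genotype in the same cells. In mid cells the 13 Leydig cell markers summed to 36.8 and 166 CPM in WT mice, with 5 genes detected in each, and to 3754 and 3707 in Ctcf-cKO mice, with 11 and 10 detected. The 14 Sertoli cell markers summed to 70.9 and 124 CPM in WT and to 1400 and 1747 in Ctcf-cKO mice, and the 22 markers of elongating spermatids were all detected in every mouse. Median depth per mid cell was 22912 and 11649 counts in WT mice and 5474 and 2167 in Ctcf-cKO mice. The part of these markers and of depth in the lower ROPN1 level was not tested.

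AKAP4 went the other way in mid cells. It was at 1671 and 2024 CPM in WT mice and at 2821 and 2690 in Ctcf-cKO mice, without overlap, as were 27.1% of all genes tested in that direction. The log2 fold change was 0.55 ± 0.18 (SE) with an adjusted p of 0.108, so it was not called by edgeR, while DESeq2 gave an adjusted p of 0.0406. Library totals alone, removal of doublets and values divided by 4 also brought it past the threshold. AKAP3 was higher as well, with a log2 fold change of 0.45 ± 0.29 (SE, adjusted p = 0.450), and CABYR was lower without overlap at -0.27 ± 0.30 (SE, adjusted p = 0.723). FSIP2 had 6, 5, 22 and 6 counts and was not tested. The median log2 fold change over the 7 genes tested was -0.08, against 0.01 over all genes.

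In late spermatid-like cells 186 of 1744 genes were called (10.7%), of which 184 were higher in Ctcf-cKO mice. Of the 8 genes 7 were tested and none was called by edgeR or DESeq2, with AKAP3 alone at an unadjusted p under 0.05, as were 17.4% of all genes tested. AKAP3 had 22 and 9 counts in WT mice and 33 and 61 in Ctcf-cKO mice, or 67.6 and 108 CPM against 257 and 456, without overlap, as were 28.9% of all genes in that direction. Its log2 fold change was 2.02 ± 0.71 (SE) with an adjusted p of 0.0535. Over 14 alternatives the log2 fold change ranged from 0.30 without Harmony correction (adjusted p = 0.984) to 3.17 with free RNA subtracted (adjusted p = 0.108), and 3 of them called it. At equal depth 7.41% and 27.3% of late cells of WT mice and 18.9% and 30% of those of Ctcf-cKO mice held an AKAP3 count. The genotypes thus overlapped in this measure. Somatic-like cells held one in 18.2% and 28.6% in WT mice and in 20.5% and 15.1% in Ctcf-cKO mice. The late level was 0.129 and 0.514 times the somatic-like level in WT mice and 0.818 and 1.37 times it in Ctcf-cKO mice. It was above the somatic-like level in Ctcf-cKO replicate 3 alone. In both Ctcf-cKO mice it lay under that of barcodes under 200 genes (478 and 572 CPM), as it did in both WT mice. The Leydig cell markers summed to 3.07 and 0 CPM in late cells of WT mice and to 3699 and 4804 in those of Ctcf-cKO mice, and the 4 red blood cell markers to 0 in both WT mice and to 14852 and 1294 in Ctcf-cKO mice. Their part in the AKAP3 values was not tested.

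The other 6 genes tested in late cells had log2 fold changes between -0.54 (CABYR) and 0.12 (ROPN1L and AKAP4), with standard errors of 0.60 to 0.64. AKAP4 was at 3017 and 3012 CPM in WT mice and at 3442 and 3292 in Ctcf-cKO mice, and the approximate 95% interval of its log2 fold change was -1.13 to 1.37. SPA17 and CABYR were lower in both Ctcf-cKO mice than in both WT mice, as were 16.9% of all genes, with adjusted p of 0.871 and 0.799 in edgeR. In simulated counts of this class 12.7% of genes changed by 2 on the log2 scale were called, so differences of that size could have been missed.

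**Figure D4:**
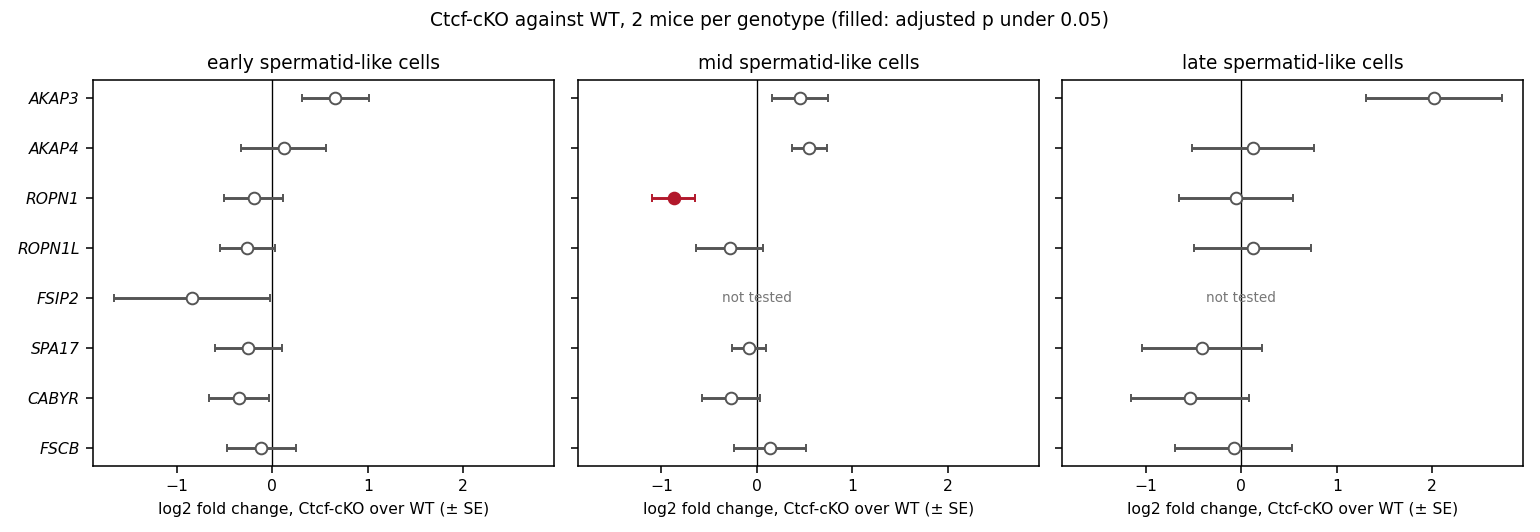
Log2 fold change of Ctcf-cKO over WT cells with its standard error (x axis) for each gene (y axis) in the 3 spermatid-like classes, 2 mice per genotype. ROPN1 in mid cells, at -0.87, is the filled point past the threshold, and AKAP3 in late cells lies at 2.02.

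**Figure D5:**
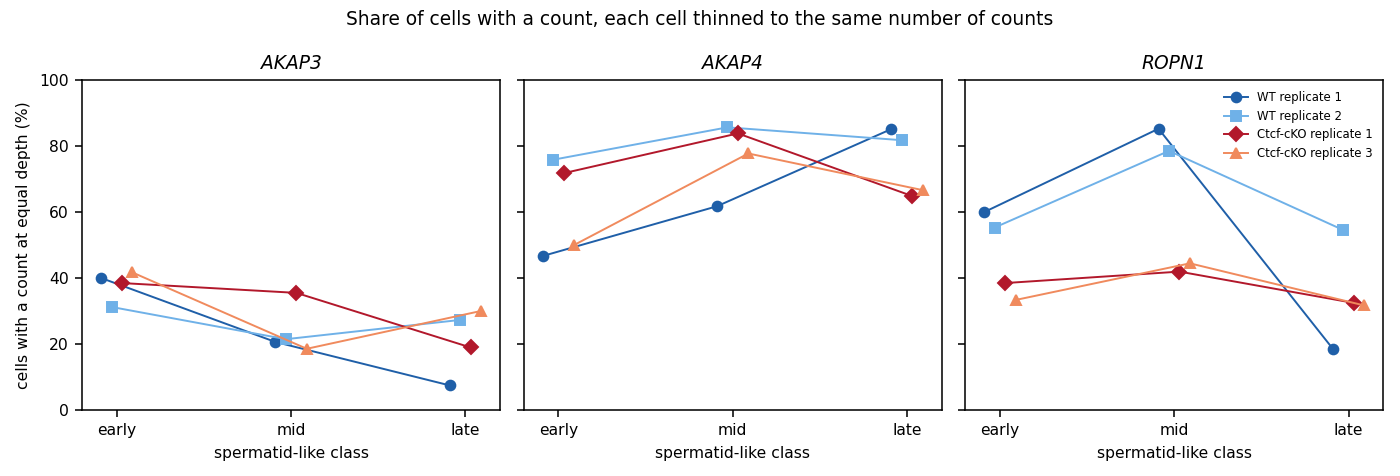
Percent of cells with a count of AKAP3, AKAP4 or ROPN1 (y axis) after each cell was thinned to 900 counts, by spermatid-like class (x axis), with a line per mouse. For ROPN1 in mid cells the WT mice lie at 85.3% and 78.6% and the Ctcf-cKO mice at 41.9% and 44.4%.

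Whether the change between classes differed by genotype was tested as an interaction over 4691 genes, with mouse as a block, and no gene was called in any of the 3 contrasts. For AKAP3 the change from early to late cells differed by 1.13 ± 0.83 (SE, adjusted p = 0.977 in edgeR), and for ROPN1 the change from early to mid cells by -0.77 ± 0.78 (SE, adjusted p = 1). FSIP2 had the lowest unadjusted p, 0.0271 for early to mid cells, with an adjusted p of 1 in edgeR. The genotype difference of ROPN1 is therefore not shown to belong to mid cells more than to the other classes.

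The partners of the sheath gave no call. Of 25 other genes of the sheath and its glycolytic and kinase partners, 21, 16 and 15 were tested in early, mid and late cells. Neither edgeR nor DESeq2 called any, nor was there an unadjusted p under 0.05. Over all genes tested in edgeR, 0%, 6.51% and 10.7% were called, and 3.11%, 19.5% and 17.4% had an unadjusted p under 0.05. With so few partners tested, few or no calls would arise at these shares, so their lack is no result about the partners. The median log2 fold changes were -0.13, 0.01 and -0.28, beside -0.05, 0.01 and -0.01 over all genes tested. In late cells the highest were TXNDC8, a spermatid thioredoxin, at 0.22 ± 0.77 (SE) and TCP11 at 0.21 ± 0.65. The lowest were PRKAR2A, a regulatory subunit of the protein kinase A that AKAP3 and AKAP4 anchor, at -0.85 ± 0.58 and PGK2, the phosphoglycerate kinase of germ cells, at -0.66 ± 0.62.

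Of 20 genes of other tail structures, 20, 14 and 12 were tested in early, mid and late cells. In late cells 1 of the 12 was called by edgeR, where 10.7% of all genes tested were called, and none by DESeq2. TEKT5, a tektin of the axoneme, had 0 and 2 counts in WT mice and 13 and 15 in Ctcf-cKO mice (adjusted p = 0.0274 in edgeR), and it passed the filter through the Ctcf-cKO mice. TEKT2 was at 1.45 ± 0.99, SPAG17, a protein of the central apparatus, at -1.83 ± 0.82 and SMCP, a protein of the mitochondrial sheath, at -1.01 ± 0.79 (log2 fold change ± SE), none of which was called. The median over the 12 genes was -0.14.

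Over the 16 sums of mouse and germ cell class, the genes whose log2(CPM + 10) profile was most like that of the 8 genes summed were LLCFC1 (Pearson r = 0.947), PMFBP1 (0.925), a protein of the head-tail junction, TES (0.923), CHL1 (0.919) and KLHL10 (0.915), a substrate adaptor for ubiquitin ligation in spermatids, among 8348 genes. Within the 8, each of which is itself part of the sum, CABYR was nearest to it (0.936) and ROPN1L (-0.18) and FSIP2 (0.01) were farthest. The sums of a mouse share a library and its depth, so these coefficients are a description.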

How the data were processed

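Testis cells of 2 WT and 2 Ctcf-cKO mice were isolated with ddSEQ droplets, 3′ libraries were sequenced, and, per the labels, reads were aligned to GRCm38. The authors deposited a table per mouse of raw counts (whole numbers), with gene symbols in rows and barcodes in columns. The counting tool and the merging of reads of a molecule are not given in the sources used here. Values of 1 to 4 made up 84.4 to 90.3% of the non-zero entries, and 5 was much rarer than 4. A molecule may therefore have been counted up to 4 times. The Poisson intervals take each count as independent, so they may be too narrow even for counting error, and they leave out differences between mice. Between 20 and 22 symbols per table had become dates and were kept. No column belonged to another sample.

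Barcodes with 200 to 7000 genes and at most 10% mitochondrial counts were kept if they held at least 3 times the median of the barcodes ranked 300 to 1000 in their library, which left 96, 241, 228 and 246 cells. Seurat 5.3.0 (R 4.3.3) normalized them and found 2000 variable genes, the 8 genes being left out. Harmony, rewritten (theta 2, sigma 0.1), corrected 15 principal components, and clusters were made at a resolution of 0.9. A cluster was named by at least 3 markers. Pseudotime used scanpy 1.11.5, and of the elongating clusters the last in pseudotime was taken as late. Scrublet marked 9, 6, 22 and 17 doublets, which were kept.

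For each class with 5 or more cells in every mouse, the counts of its cells were added up by mouse. Genotypes were compared in edgeR 4.0.16 with its quasi-likelihood F test after TMM scaling and the filterByExpr filter, at a Benjamini-Hochberg threshold of 0.05. Standard errors were derived from the log2 fold change and F. With 2 mice per genotype a two-sided exact permutation test cannot give a p below 0.333, so none was used. Levels are CPM, the summed counts scaled to a total of 1000000, with exact Poisson intervals (95%) and a floor of 3 counts. For shares of cells, each cell was thinned to 900 counts, and no cell was left out. The tests were checked on simulated counts.

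The members, the gene lists and the cell limits were chosen with earlier results of these data known. Named genes were the 8 members, the 2 highest and 2 lowest log2 fold changes of each partner list in late cells, and the 5 genes most like the summed profile. Promoters came from RefSeq, positions from GENCODE M21. Alternatives were DESeq2 1.42.0, other scalings and filters, other clusterings and cell sets, free RNA (taken as the profile of barcodes under 200 genes) subtracted and each mouse left out. Values divided by 4, the interaction test, and the late to early ratios under each setting were added after seeing the data.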

Additional observations from a re-analysis of the deposited data

How the results depend on the processing

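No paired analysis was made, since the sources used here give no pairing of single WT mice with single Ctcf-cKO mice. The higher late than early level of AKAP4 and SPA17 and the lower late level of AKAP3, ROPN1L and CABYR kept their direction in every alternative run. On the log2 scale the late to early ratio moved by more than 1 SD to 0.80 for AKAP4 and -2.17 for ROPN1L with as many barcodes as the study counts, and to -2.57 for AKAP3 and -4.33 for ROPN1L with free RNA subtracted. Leaving out a mouse gave ranges of 1.11 to 1.48 for AKAP4, 0.44 to 0.75 for SPA17, 0.16 to 0.88 for FSCB, -0.89 to -0.21 for ROPN1, -1.32 to -1.10 for CABYR, -2.02 to -1.51 for AKAP3 and -2.90 to -2.58 for ROPN1L.

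The number of fibrous sheath genes called in mid cells, 1 in the report, was 2 with DESeq2, 2 with library totals alone, 2 with values divided by 4, 3 without Scrublet doublets, 0 with the 8 genes kept in the clustering, 0 with as many barcodes as the study counts, 0 with free RNA subtracted and 0 to 1 with a mouse left out. In late cells, with 0 in the report, it was 1 with library totals alone, 1 without doublets and 3 with as many barcodes as the study counts (AKAP3 at 1.20, ROPN1 at -1.29 and ROPN1L at 0.70), and 0 with any mouse left out. Without doublets AKAP3 was called in mid cells (1.21) and in late cells (2.41). In early cells no alternative called any of the 8. With the settings of the report 6.51% of all genes tested were called in mid and 10.7% in late cells. Calls over all genes also rose in late cells with as many barcodes as the study counts, and in mid cells without doublets. The share of all genes called under each alternative is not given, so these counts are no result about the 8 genes. The cause of the shifts in member counts was not tested.

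Over all genes the calls in early cells were 5 with DESeq2, 1 with library totals alone, 21 with no filter on low genes, 1 with values divided by 4 and 1 to 79 with a mouse left out. In mid cells they were 26 with at least 10 counts in every library, where fewer genes were tested, 22 with the 8 genes kept, 15 with as many barcodes as the study counts, 285 without doublets, 88 with free RNA subtracted, 95 with values divided by 4 and 84 to 237 with a mouse left out. In late cells they were 83 with no filter, 2 with at least 10 counts, 1 without Harmony, 858 with as many barcodes as the study counts, 116 with free RNA subtracted, 47 with values divided by 4 and 57 to 165 with a mouse left out. Library totals alone moved the median log2 fold change of all genes from 0.01 to 0.13 in mid and from -0.01 to 0.20 in late cells. At a resolution of 0.5 mid and late cells were not separated, at 1.3 late cells and without Harmony mid cells had under 5 cells in a mouse, so these gave no value.

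Of 344 log2 fold changes of single genes, 43 had the other sign than in the report, none of them called. With library totals alone they were FSCB at 0.0010 in early, SPA17 at 0.035 in mid, and FSCB at 0.088 and ROPN1 at 0.15 in late cells. With no filter they were AKAP4 at -0.030 in early, FSCB at -0.11 in mid, and AKAP4 at -0.13 and ROPN1L at -0.10 in late cells. With at least 10 counts, FSCB was at 0.12 and ROPN1 at 0.17 in late cells. With the 8 genes kept, AKAP3 was at -0.016 and FSCB at -0.42 in mid and FSCB at 0.13 in late cells. With as many barcodes as the study counts, AKAP3 was at -0.087 and FSCB at -0.45 in mid cells. Without Harmony, FSCB was at 0.67, ROPN1L at -0.47 and SPA17 at 0.056 in late cells. Without doublets, ROPN1L was at 0.48 in mid and ROPN1 at 0.17 in late cells. With free RNA subtracted, FSCB was at 0.015 and ROPN1 at 0.010 in late cells. With values divided by 4, ROPN1L was at 0.016 and SPA17 at 0.060 in mid, and FSCB at 0.038 and ROPN1 at 0.27 in late cells. With a mouse left out, values spanned 0 for AKAP4 (-0.50 to 0.94), FSIP2 (-2.50 to 0.26), SPA17 (-0.69 to 0.19) and FSCB (-0.42 to 0.022) in early cells, for FSCB (-0.42 to 0.81) and ROPN1L (-0.90 to 0.11) in mid cells, and for AKAP4 (-0.11 to 0.13), ROPN1 (-0.73 to 0.77), ROPN1L (-0.57 to 0.52) and FSCB (-1.11 to 0.68) in late cells.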
